A study of Mus musculus with 4 samples.

Results

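Endothelial and adhesion genes were examined in the livers of 4 ABCA1-transgenic mice, with 1 oligonucleotide array per mouse. The genes were Pecam1, Kdr, Cdh5, Tek, Stab2, Lyve1, Vwf, Vcam1 and Icam1, and a probe set was taken when the platform annotation gave it 1 of these symbols and no other. All 9 genes were measured, by 13 of the 22626 probe sets that are not controls. The genes were chosen by name with earlier results of these arrays known, so the levels below describe these livers and support no choice made from them. The mice were male, on C57BL/6, 5 to 6 months old and fed the NIH36 diet. They carried an ABCA1 transgene whose promoter and species the labels do not name. The series title places the study on an LDL receptor -/- background and the sample descriptions on LDL receptor +/-, so the LDL receptor genotype of these mice is not settled here. The design names wild-type controls, which were not analysed here. The comparison is therefore between the 4 transgenic mice, called mouse 1 to mouse 4 after the replicate number in the titles.

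The liver sinusoid is lined by a fenestrated endothelium that clears macromolecules from blood through scavenger receptors, among them stabilin-2 (Stab2) and, on the same cells and on lymphatic endothelium, the hyaluronan receptor Lyve1. Larger hepatic vessels carry a continuous endothelium that stores von Willebrand factor (Vwf), and both kinds use the VEGF receptor Kdr, the angiopoietin receptor Tek, the junctional cadherin Cdh5 and the platelet-endothelial adhesion molecule Pecam1. Vcam1 and Icam1 bind leukocyte integrins, and their transcription is induced by NF-kB after inflammatory stimulation.

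The RefSeq promoter table (GRCm38.p6) held 4 of the 9 genes, Kdr, Tek, Stab2 and Icam1. All but Tek are shown. Kdr and Stab2 were taken because their signals as deposited ordered the 4 mice alike, and Icam1 because it is the inducible gene of the 4. Each is the stretch of 250 bases before the annotated start, 5′ to 3′ on the gene's strand. Capitals mark matches on either strand to GGAAATTCC, a form of the NF-kB site, or to CCGGAA, a core of ETS factor sites. Another form of the NF-kB site, GGGNNTTCC, was searched and had 0 matches in the 4 promoters.
Kdr, chr5:75978456-75978705, minus strand: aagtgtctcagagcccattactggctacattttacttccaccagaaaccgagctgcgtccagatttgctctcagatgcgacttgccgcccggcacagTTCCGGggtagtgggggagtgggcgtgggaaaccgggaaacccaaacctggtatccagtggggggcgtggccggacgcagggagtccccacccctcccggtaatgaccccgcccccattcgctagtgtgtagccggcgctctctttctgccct
Stab2, chr10:87007943-87008192, minus strand: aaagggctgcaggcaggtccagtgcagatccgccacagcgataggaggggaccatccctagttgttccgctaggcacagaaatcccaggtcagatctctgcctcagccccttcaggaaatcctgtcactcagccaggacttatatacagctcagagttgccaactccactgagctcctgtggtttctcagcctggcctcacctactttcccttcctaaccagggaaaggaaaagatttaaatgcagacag
Icam1, chr9:21015690-21015939, plus strand: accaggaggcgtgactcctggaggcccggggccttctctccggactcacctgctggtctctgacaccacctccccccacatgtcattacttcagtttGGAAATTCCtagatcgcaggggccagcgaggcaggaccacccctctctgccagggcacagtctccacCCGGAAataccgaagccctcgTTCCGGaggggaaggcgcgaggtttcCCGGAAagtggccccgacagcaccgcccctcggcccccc
Icam1 held 1 match to GGAAATTCC and 3 matches to CCGGAA. At least 1 match to GGAAATTCC was held by 0.286% of the 32851 promoters in the table. For CCGGAA the share with at least 1 match was 12.03%, and the share with 3 was not computed. Kdr held 1 match to CCGGAA, and Stab2 and Tek held none of the searched letters. GGGNNTTCC was found in 4.977% of all promoters. A match is a description of the letters and not a site shown to be bound.

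Signals of the 9 genes were close between the 4 livers. With the probe set of highest mean level taken for each gene, the SD between mice ran from 0.10 log2 for Tek to 0.28 log2 for Vwf, with a median of 0.17 log2 over the 9 genes against 0.26 log2 over all 12393 measured genes. The highest mouse exceeded the lowest by 1.18-fold for Tek, the smallest ratio, and by 1.49-fold for Pecam1, the largest. With 4 arrays the 95% interval of an SD reaches from 0.57-fold to 3.73-fold of the estimate. Even the intervals of Tek and Vwf overlap, so the order of the 9 SDs is uncertain. Each SD was set against the SD usual for probe sets of that level (limma's prior), and 10 of the 13 probe sets lay under it, as did 52.4% of all probe sets. After the arrays were shifted to the same median signal the SD of Vwf was 0.20 log2, Cdh5 had the widest at 0.30 and Stab2 the narrowest at 0.07. In limma's test of excess spread, with Benjamini-Hochberg adjustment over the whole array, 0 of 13 passed, as did 0% of all probe sets. That test finds only very large excesses, so a count of 0 says little about how steady a gene is. An unadjusted p under 0.05 was found for 1 of the 13, a Vcam1 probe set described below, and for 3.71% of all probe sets.

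**Figure D1:**
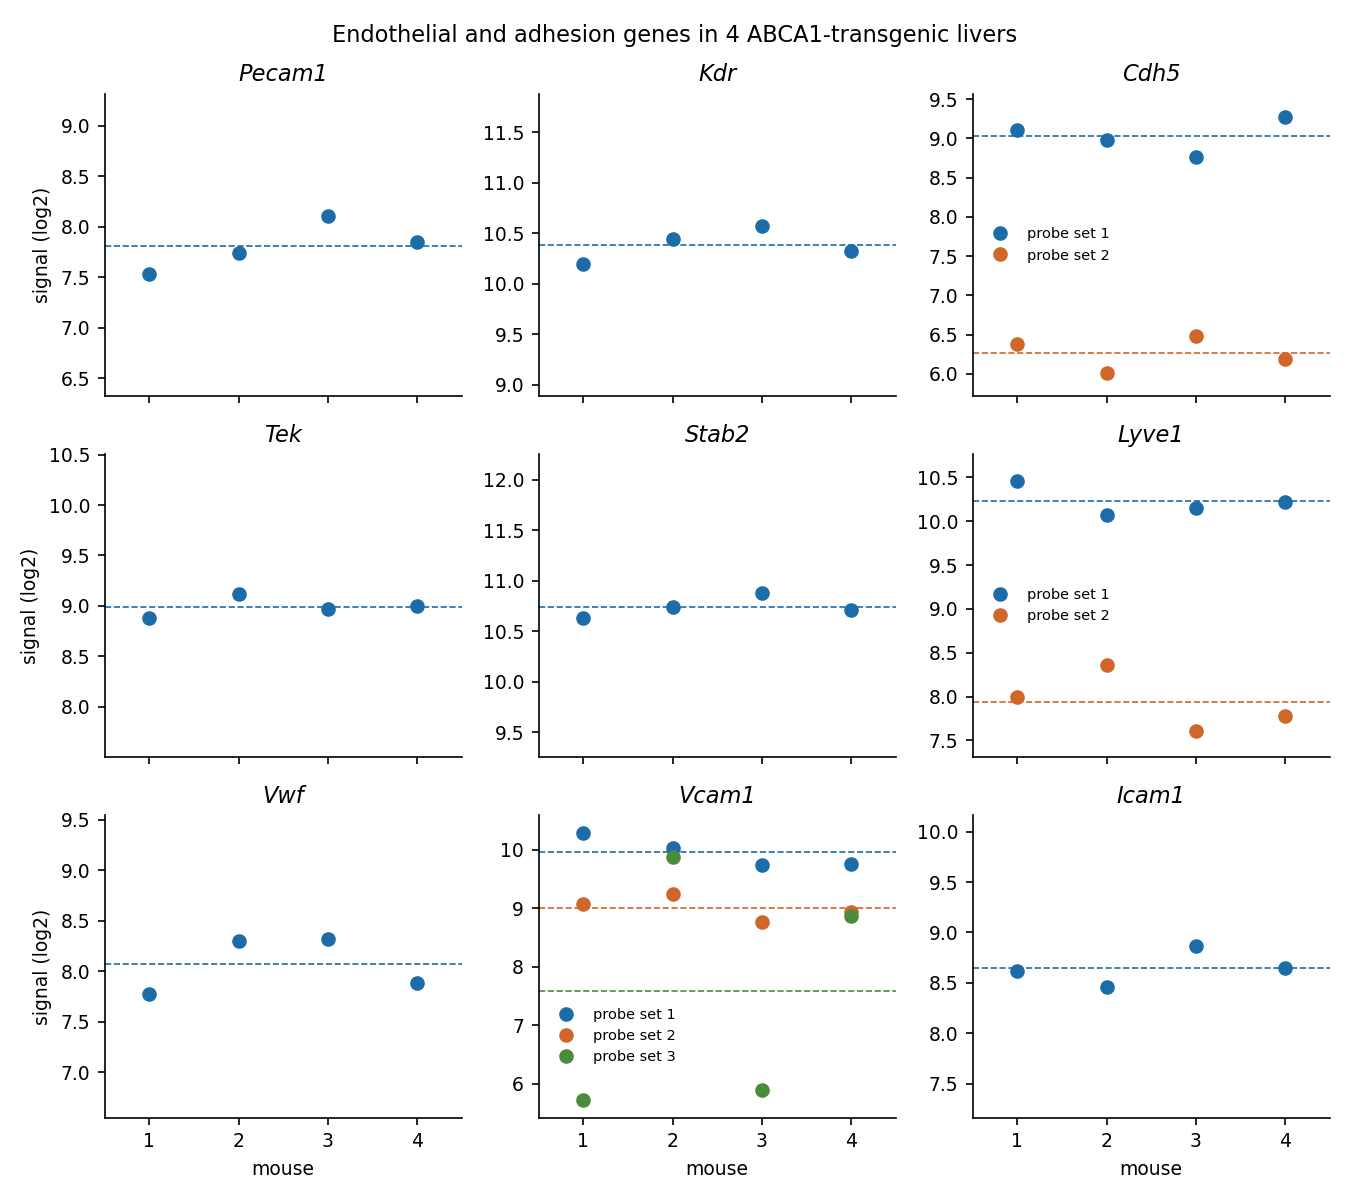
Log2 signal (vertical axis) of each of the 13 probe sets in mice 1 to 4 (horizontal axis), one panel per gene. Points are single arrays, dashed lines are means over the 4 mice, colours separate probe sets of a gene and probe set 1 has the highest mean. Panels of genes with 1 probe set span 3 log2 units, and the third Vcam1 probe set is the one that stands apart, at 5.72 and 5.89 in mice 1 and 3 and 9.88 and 8.87 in mice 2 and 4.

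Among the receptors of endothelial growth signals, Kdr measured 10.20, 10.45, 10.57 and 10.32 log2 in mice 1 to 4 (mean 10.38 ± 0.16, SD, n = 4). Mouse 1 was lowest and mouse 3 highest, a ratio of 1.29-fold. Tek, which binds angiopoietins, measured 8.88, 9.12, 8.97 and 9.002 log2 in mice 1 to 4 (8.99 ± 0.10, SD, n = 4). Here mouse 1 was again lowest, mouse 2 was highest and mice 3 and 4 lay close together. The spread of Tek was 0.42 times the usual SD at its level and that of Kdr 0.83 times, with adjusted p of 1.0 and 0.987 in limma's test.

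Of the scavenger and hyaluronan receptors, Stab2 measured 10.63, 10.74, 10.88 and 10.71 log2 in mice 1 to 4 (10.74 ± 0.10, SD, n = 4). Its order of mice in the values as deposited, from 1 through 4 and 2 up to 3, was that of Kdr and Vwf. Of all genes, 7.69% showed this order. The array medians were 8.12, 8.24, 8.25 and 8.06 log2 in mice 1 to 4. After a shift to the same median Stab2 and Kdr no longer shared an order. Lyve1 measured 10.46, 10.07, 10.15 and 10.22 log2 on its first probe set (10.22 ± 0.17, SD, n = 4), where mouse 1 was the highest. On its second probe set Lyve1 measured 7.998, 8.36, 7.61 and 7.78 log2 (7.94 ± 0.33, SD, n = 4), where mouse 2, the lowest on the first, was the highest. The probe sets of Lyve1 thus did not give one order of the mice, and the SD of their disagreement was 0.28 log2 against a median of 0.32 log2 over the 4956 genes with at least 2 probe sets.

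The junctional genes gave no shared order either. Cdh5, VE-cadherin, measured 9.10, 8.98, 8.76 and 9.27 log2 in mice 1 to 4 on the first probe set (9.03 ± 0.21, SD, n = 4), with mouse 3 lowest and mouse 4 highest. On the second, of lower level, it measured 6.38, 6.01, 6.48 and 6.19 log2 (6.26 ± 0.20, SD, n = 4), with mouse 3 highest. Pecam1 measured 7.53, 7.74, 8.11 and 7.85 log2 (7.81 ± 0.24, SD, n = 4), lowest in mouse 1 and highest in mouse 3.

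Vwf, the clotting factor carrier made by endothelium and megakaryocytes, measured 7.77, 8.30, 8.32 and 7.89 log2 in mice 1 to 4 (8.07 ± 0.28, SD, n = 4). Mice 2 and 3 were high and close to each other, and mice 1 and 4 were low. Platelet and megakaryocyte transcripts, taken as a list, were for the most part high in mice 2 and 3 too. In limma's test 0 of 7 probe sets of the list passed after adjustment. An unadjusted p under 0.05 was found for 1 of the 7, against 3.71% of all probe sets. The median over the 6 measured genes of that list, each mouse minus the mean of the other 3, was -0.46, 0.56, 0.32 and -0.46 log2 in mice 1 to 4, with 1, 6, 6 and 0 of 6 genes higher. Of all genes, 42.8%, 57.9%, 59.8% and 42.9% were higher. Among the 6, Itgb3 had signals under 64 on every array, at 4.15, 4.66, 4.49 and 4.11 log2. Gp9, at 4.38, 7.57, 5.94 and 4.74 log2, was under 64 in all mice but mouse 2. Both are named after their values were seen. The platelet chemokine genes Ppbp and Pf4 measured 7.27, 9.73, 8.93 and 7.63 log2, and 8.61, 9.47, 9.26 and 8.52 log2. The platelet integrin gene Itga2b, at 8.98, 8.96, 8.97 and 8.67 log2, was level in mice 1 to 3. The part of platelet RNA in the Vwf signal was not tested. In liver RNA, fewer cells of a type and less RNA per cell cannot be told apart.

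Vcam1, measured by 3 probe sets, showed the widest spread and the sharpest disagreement of the 9 genes. The first probe set measured 10.30, 10.03, 9.74 and 9.76 log2 in mice 1 to 4 (9.96 ± 0.26, SD, n = 4) and the second 9.08, 9.25, 8.76 and 8.93 log2 (9.004 ± 0.21, SD, n = 4). On both, mice 1 and 2 lay above mice 3 and 4. The third measured 5.72, 9.88, 5.89 and 8.87 log2 (7.59 ± 2.10, SD, n = 4), with signals under 64 on 2 arrays, those of mice 1 and 3. With these raised to 64, mouse 2 exceeded them by 14.7-fold. Mice 2 and 4 lay above mice 1 and 3 by more than the whole range of either other probe set. Its SD was 5.84 times that usual at its level, a ratio exceeded by 0.0751% of all probe sets. Its unadjusted p was 0.0011 and its adjusted p over all probe sets 0.977 in limma's test. The disagreement of the Vcam1 probe sets, an SD of 1.21 log2, was exceeded in 3.69% of genes with at least 2 probe sets.

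**Figure D2:**
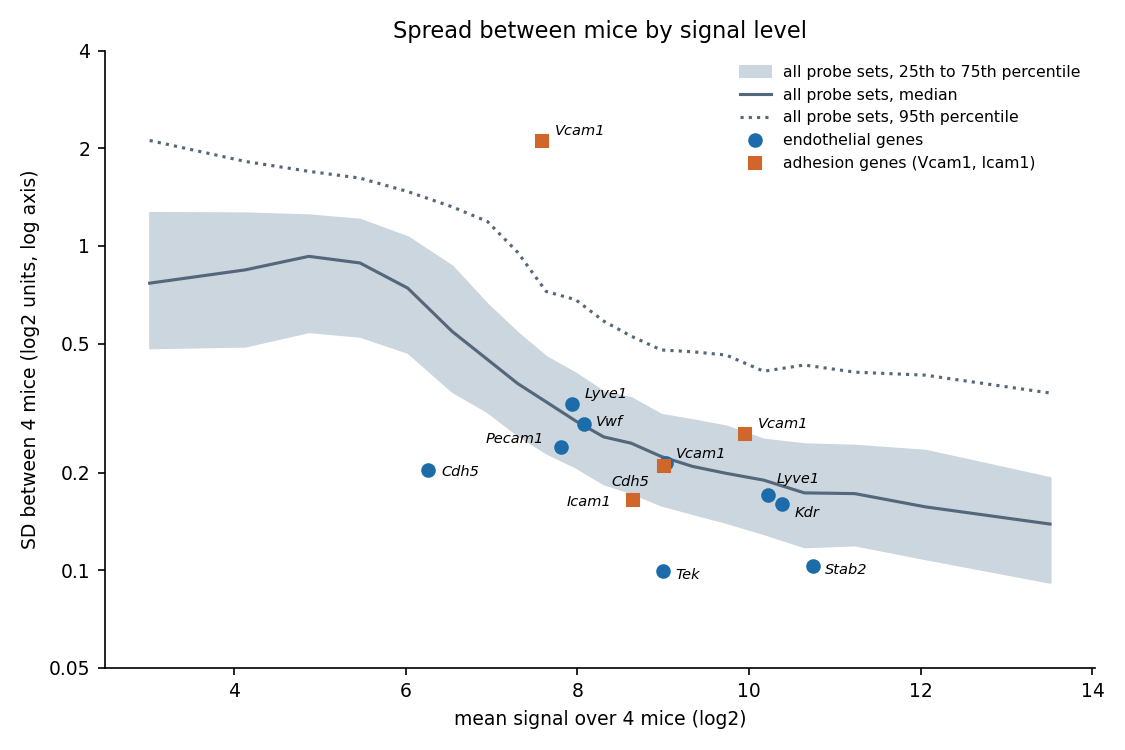
SD between the 4 mice (vertical axis, log2 units on a log axis) against mean log2 signal (horizontal axis) for the 13 probe sets. The band and lines give the percentiles of all probe sets in 20 bins of equal size, and only the third Vcam1 probe set, with an SD of 2.10 log2, lies above the 95th percentile line.

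The third Vcam1 probe set was high in the 2 mice, 2 and 4, in which several transcripts of the exocrine pancreas were high as well. The median over the 7 measured pancreas genes, each mouse minus the mean of the other 3, was -0.81, 1.68, -1.10 and 0.31 log2 in mice 1 to 4, with 0, 7, 0 and 4 of 7 genes higher, against 42.8%, 57.9%, 59.8% and 42.9% of all genes. In limma's test 11 of 13 probe sets of the list had an unadjusted p under 0.05, against 3.71% of all probe sets, and 0 passed after adjustment. All 7 were highest in mouse 2, as were 29.8% of all genes. The order of mice of the probe set was given by 2 of 7, Ctrl and Cpa1. The share of all genes with that order was not computed. In mice 1 and 3 the signals of Ctrl, Cpa1 and the probe set were all under 64, so the order of these mice is uncertain. In 3 of the 7 mouse 3 was the lowest instead of mouse 1, and in the other 2, Cela3b and Prss2, mouse 4 lay below mouse 3. Of the genes with a mean of at least 6 log2 the widest were Cpb1, a carboxypeptidase, at 6.63, 9.55, 3.89 and 8.20 log2, and Ctrl, a chymotrypsin-like protease, at 5.40, 9.96, 5.47 and 8.10 log2, and the steadiest was the elastase gene Cela1, at 9.78, 10.33, 9.60 and 9.89 log2. Cpa1, Cela3b and Prss2 are named after their values were seen. In a search added after the probe set's values were seen, the centred log2 values closest to it among 10346 genes with a mean of at least 6 log2 were those of Ctrl, Oprm1, an opioid receptor gene, and Myl3, a myosin light chain gene of muscle, at root mean square differences of 0.30, 0.36 and 0.79 log2 over the 4 mice. Skeletal muscle transcripts had medians of -3.44, 1.72, 0.79 and 1.56 log2 over 9 genes. The part of other tissues in this Vcam1 signal was not tested.

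**Figure D3:**
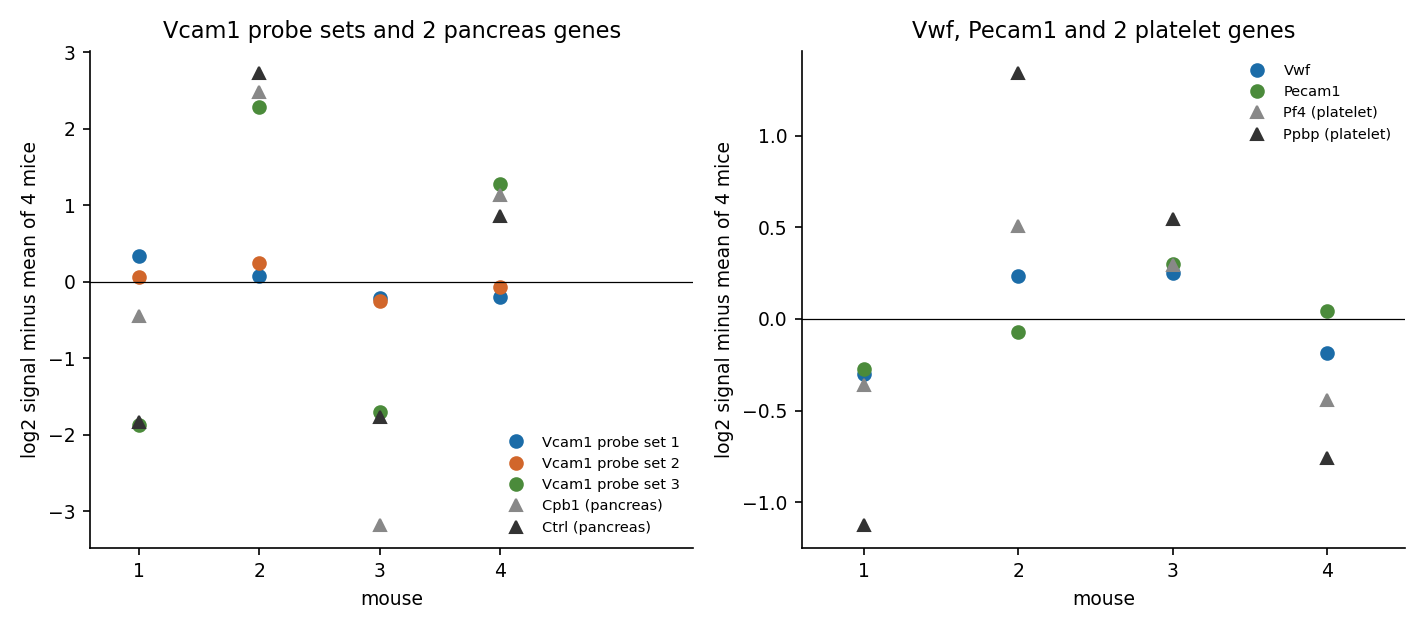
Log2 signal minus the mean of the 4 mice (vertical axis) in mice 1 to 4 (horizontal axis). Left, the 3 Vcam1 probe sets with the pancreas genes Cpb1 and Ctrl, where probe set 3 lies beside Ctrl in mice 1 and 3 and probe sets 1 and 2 stay within 0.34 of 0. Right, Vwf and Pecam1 with the platelet genes Pf4 and Ppbp, where Vwf, Pf4 and Ppbp are above 0 in mice 2 and 3 and below it in mice 1 and 4.

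Icam1 measured 8.61, 8.46, 8.86 and 8.65 log2 in mice 1 to 4 (8.65 ± 0.16, SD, n = 4), with mouse 3 highest and mouse 2 lowest, a ratio of 1.32-fold. The order of the mice differed from that of the first Vcam1 probe set, on which mouse 1 was highest and mouse 3 lowest. Of 12 measured genes of NF-kB signalling and its inflammatory targets, Tnf, the cytokine that induces both adhesion genes, measured 5.16, 7.75, 8.47 and 5.03 log2, and Cxcl1, a neutrophil chemokine, 10.19, 8.89, 8.88 and 9.35 log2. Nfkbia, the inhibitor that NF-kB itself induces, had the smallest spread, at 13.94 ± 0.06 log2 (SD, n = 4). The Tnf signals of mice 1 and 4 were under 64. In limma's test 2 of 16 probe sets of this list had an unadjusted p under 0.05, against 3.71% of all probe sets. After adjustment over all probe sets 0 passed, as did 0% of all probe sets.

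A second test asked whether the probe sets of a gene share a difference between mice beyond their own disagreement, fitted over the 4956 genes with at least 2 probe sets. After Benjamini-Hochberg adjustment 0 of the 3 such genes passed, against 0.343% of all genes. The adjusted p with limma's moderated variance was 0.954 for Cdh5, 0.781 for Lyve1 and 0.647 for Vcam1. At an unadjusted p under 0.05 the count was 0 of 3, and the share of all genes 8.92%. The SD between mice of the mean over probe sets was 0.11 log2 for Cdh5, 0.17 for Lyve1 and 0.74 for Vcam1. The test finds few shared differences as small as those of Cdh5 and Lyve1, so its result excludes none of that size.

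Set against the other 3 mice, the 9 genes lay lowest in mouse 1 and highest in mouse 3, an order that did not hold when the arrays were shifted to the same median. The medians for mice 1 to 4 were -0.15, 0.0020, 0.18 and -0.0083 log2, with 3, 5, 5 and 4 of 9 genes higher, against 42.8%, 57.9%, 59.8% and 42.9% of all genes, so that the counts were near those of any genes. Over all genes the same medians were -0.05, 0.06, 0.09 and -0.06 log2. With that shift the values of the 9 genes were -0.08, -0.09, 0.07 and 0.13, so that mice 2 and 4 changed sign, mouse 2 was the lowest and mouse 4 the highest. Mouse 1 was the lowest mouse for 5 of the 9 genes and for 28.9% of all genes, and mouse 3 the highest for 5 of the 9 and for 33.5% of all genes. In mouse 1 the 3-prime to 5-prime ratio of the Gapdh controls was 1.67 log2 against 1.94 to 2.03 in the other mice. The same ratio of the beta-actin controls was 1.82 against 1.88 to 2.12. Such a ratio reflects both RNA length and the amplification from the poly(A) tail. The 18S ribosomal RNA gave 9.95 log2 in mouse 1 against 8.75 to 8.98. Bile duct genes had medians of -0.77, 0.64, 0.42 and 0.27 log2 in mice 1 to 4, with 0 of 6 genes higher in mouse 1, and of the 9 skeletal muscle genes 0 were higher there. The part of RNA quality and of other tissues in the values of mouse 1 was not tested.

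Other endothelial genes were grouped in a list of identity genes and a list of sinusoidal genes. The medians of these lists lay within 0.18 log2 of the other mice, while single genes ranged more widely. Of 28 genes of endothelial identity and junctions the median was -0.07, 0.13, 0.18 and -0.13 log2 in mice 1 to 4. In limma's test 0 of their 43 probe sets had an unadjusted p under 0.05, against 3.71% of all probe sets. The widest, Edn1, which encodes the vasoconstrictor endothelin-1, measured 6.61, 7.57, 6.37 and 4.66 log2, and Mcam 6.43, 6.98, 5.30 and 5.44 log2. Ramp2, the adrenomedullin receptor subunit, was the steadiest, at 9.70 ± 0.07 log2 (SD, n = 4). Of 15 sinusoidal endothelial genes the median was -0.12, 0.09, -0.05 and -0.03 log2, and in limma's test 1 of 23 probe sets had an unadjusted p under 0.05. In this list the lectin gene Clec4g measured 12.85 ± 0.09 log2 (SD, n = 4), whereas Dnase1l3, a secreted DNase, measured 10.42, 10.94, 10.24 and 9.87 log2. Cd36, the fatty acid translocase, which hepatocytes and macrophages also express, measured 11.95, 11.56, 10.93 and 12.24 log2 on its brightest probe set. Of all genes with at least 2 probe sets 0.343% passed the test of a shared difference. Of 5 such sinusoidal genes Cd36 alone passed (adjusted p = 0.035 with limma's moderated variance). Leaving out 1 mouse gave adjusted p of 0.073 (mouse 2) to 0.643 (mouse 3) with the same limma fit, and a floor of 64 on the signals gave 0.0813.

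The VEGF and angiopoietin genes lay on one side of the other mice in mouse 4. This list and mouse were picked out after the values were seen. The checks of this median with array medians made equal and with 1 mouse left out were added then too. There all 12 were above the mean of the other 3 mice, by 0.03 log2 for Vegfa to 1.34 log2 for Tie1, with a median of 0.19, while 42.9% of all genes were higher there. With array medians made equal, that value was 0.33, with 12 of 12 genes higher. The values of Tie1, 5.92, 6.33, 2.29 and 6.18 log2 in mice 1 to 4, rest on a low signal in mouse 3. Angpt1, at 2.20, 2.00, 2.94 and 2.77 log2, and Pgf, at 4.61, 4.84, 4.31 and 4.71 log2, had signals under 64 on every array. Flt1, Ptprb and Flt4 were higher in mouse 4 by only 0.04, 0.05 and 0.06 log2. Vegfa, Tie1, Angpt1, Pgf, Ptprb and Flt4 are named here after their values were seen. Angpt2, the angiopoietin that can antagonise Tek signalling, measured 6.44, 4.90, 7.13 and 7.12 log2, Vegfb 5.53, 7.35, 5.89 and 6.46 log2, and Flt1, the decoy VEGF receptor, 7.995 ± 0.07 log2 (SD, n = 4). In this list 2 of 18 probe sets had an unadjusted p under 0.05, against 3.71% of all probe sets, and 0 passed limma's test after adjustment. Without mouse 3 the median of mouse 4 was 0.10 with 10 of 12 genes higher, without mouse 1 it was 0.12 with 10 of 12, and without mouse 2 it was 0.19 with 11 of 12.

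Integrin partners of the adhesion molecules and selectins gave medians of -0.07, 0.09, 0.32 and -0.20 log2 in mice 1 to 4 over 10 genes. Itgal, the integrin chain that binds Icam1, measured 6.86, 6.08, 7.56 and 4.99 log2, Madcam1, a mucosal ligand of Itga4 integrins, 7.502, 7.64, 7.40 and 6.66 log2, and Selp, P-selectin of endothelium and platelets, 8.06 ± 0.16 log2 (SD, n = 4). Leukocyte genes had medians of -0.15, 0.16, 0.17 and -0.21 log2 over 12 genes. Kupffer cell genes had medians of -0.13, -0.16, 0.17 and 0.13 log2 over 12 genes, stellate cell genes -0.08, -0.13, 0.33 and 0.08 over 13, and lymphatic endothelial genes 0.0066, 0.04, 0.20 and -0.33 over 4. Each of these 5 lists was above the other mice in mouse 3, where the median of all genes was 0.09. Higher there were 8 of 10 genes of integrins and selectins, 9 of 12 leukocyte and 11 of 12 Kupffer cell genes. So were 10 of 13 stellate cell and 4 of 4 lymphatic genes, against 59.8% of all genes. With array medians made equal the median of all genes in mouse 3 was -0.03, and these lists were not recomputed. Hepatocyte genes, which check the tissue, had mean levels of 14.25 to 16.17 log2 over 9 genes and medians of -0.06, 0.13, -0.05 and 0.04.

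**Figure D4:**
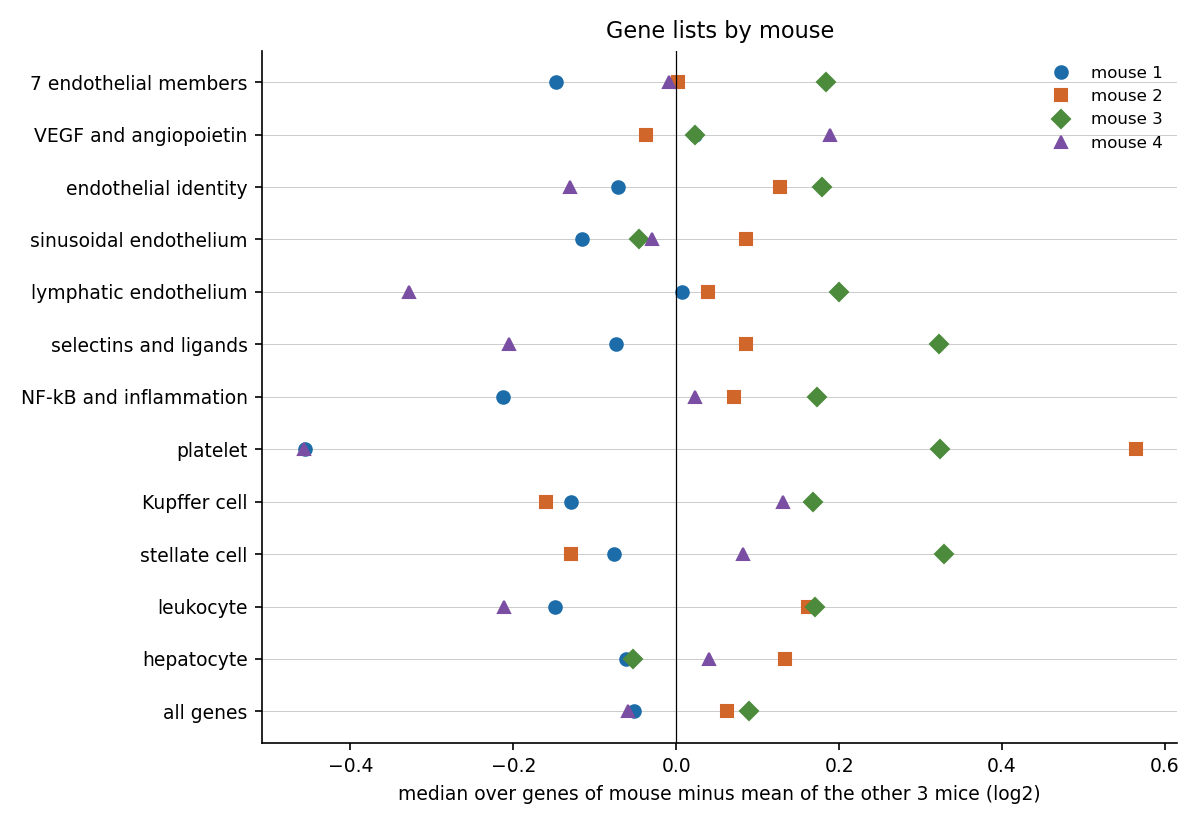
Median over the genes of a list of each mouse's log2 signal minus the mean of the other 3 mice (horizontal axis), for 13 rows of genes (vertical axis), with 1 symbol per mouse. The 7 endothelial genes run from -0.15 in mouse 1 to 0.18 in mouse 3, the VEGF list is highest in mouse 4, and of the rows drawn the platelet list has the widest range, from -0.46 to 0.56. The skeletal muscle, pancreas and bile duct lists, which ranged more widely, are not drawn.

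Genes with a similar pattern were many. For Vwf, the widest of the 9 genes by the brightest probe set in the values as deposited, the 3 closest of 7406 other genes with a mean of at least 8 log2 were Kri1, Shisa5 and Ddost, at root mean square differences of 0.02, 0.02 and 0.03 log2 over the 4 mice, and 274 genes lay closer than 0.10. For the median pattern of the 9 genes the closest were Tmem184b, Flot2 and Zfp239, at 0.01 log2 each, and 1256 of 7399 genes lay closer than 0.10. With 4 values a match of this kind is common and singles out no gene.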

How the data were processed

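Liver total RNA (2 ug, RiboAmp amplification from the poly(A) tail, per the labels' protocols) was hybridised to 1 array per mouse. The deposited values are 1 linear signal intensity per probe set, and the submitters' processing notes name RMA, with no version. Background treatment and probe summary are not given in the sources used here. The lowest intensity was 0.1, and without the outer 2% on each side every array averaged 999.9. Linear values with such a common mean are unlike usual RMA output, so the method behind the values is uncertain. No detection calls were used, and the number of arrays, 4, limits the precision. Beyond the term biological replicate the labels name nothing that sets the 4 animals apart, so the spread between them may be partly technical.

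Values were used as log2 without a pseudocount or renormalization, and 64 control probe sets were left out. Of the others, 20380 had 1 gene symbol, 691 several and 1555 none. Entrez identifiers changed 0 symbols. For 1 value per gene, the probe set of highest mean level was used. Levels of different probe sets are not compared.

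Tests used limma 3.58.1 in R 4.3.3. The variance of each probe set was compared with a robust prior that follows level (upper-tail F-test). For genes with at least 2 probe sets, the mouse term of a model with probe set and mouse was tested with moderated residual variance. Both were adjusted by the Benjamini-Hochberg method, with a threshold of 0.05. Probe sets of 1 array share their RNA and hybridisation, so animal and array cannot be told apart. Both were tested on simulated data. There the first recovered only a minority of SDs raised several-fold, so that its count of 0 says little about how steady a gene is. The second recovered few small shared differences, so that its count of 0 excludes none of that size.

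The members, the gene lists and the rule for named genes (all members, and in each list the genes with the largest, second largest and smallest SD at a mean of at least 6 log2) were chosen with earlier results of these data known. Alternatives were other normalizations, a floor of 64 on signals, filters on probe sets, other priors, the mean over a gene's probe sets and leaving out each mouse.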

Additional observations from a re-analysis of the deposited data

How the results depend on the processing

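No member passed either test under any alternative that was run. The first test finds only very large excess spread, and the second misses most small shared differences. For excess spread the count was 0 of 13 under each of 11 alternatives, with 1 of 13 at an unadjusted p under 0.05 in each, and for a shared difference it was 0 of 3 under each of 10, with 0 at an unadjusted p under 0.05. With limma's prior these counts held under quantile normalization, a shift to the same median, the floor, the filters and without each mouse. The filters kept all 13 member probe sets. Neither the filters nor the floor altered the member values behind the medians that follow, so these settings could not move those medians. The median SD of the 9 genes, 0.17 log2, ran from 0.16 to 0.20 under other settings and from 0.15 to 0.20 when 1 mouse was left out. The median of the 9 genes kept its sign in mouse 1 (-0.15 to -0.08, and -0.16 to -0.10 with 1 mouse left out) and in mouse 3 (0.07 to 0.18, and 0.15 to 0.21). It took both signs in mouse 2 (-0.09 to 0.08, and -0.04 to 0.05) and in mouse 4 (-0.0083 to 0.13, and -0.07 to 0.0017). The platelet list, checked after its values were seen, kept its sign in each mouse. In mouse 1 its value became -0.30 if mouse 2 was dropped, and in mouse 3 the list moved to 0.59, 0.15 and 0.14 on dropping mice 2, 1 and 4. Over all genes, the second test called 17, with 14 after quantile normalization, 55 after the shift, 39 with low probe sets left out, 1 with the floor, 2 without _s_at and _x_at probe sets, 19 with the other prior and 0 to 4 with 1 mouse left out. The first called 0, and 5 with low probe sets left out. No paired analysis was possible because the labels give 1 group. With 4 arrays and no detection calls, differences of low signals are the least certain.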
